A study of Drosophila melanogaster with 9 samples.

Results

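The genes fit, to, tobi, upd2 and daw are Drosophila melanogaster genes linked to feeding and dietary sugar. They were taken by symbol from the deposited files, which hold 16837 genes, and all 5 were found. They were chosen by name, with their levels in these libraries and their differences between the genotypes already known, so those differences are given as a description, with no test. RNA came from heads of virgin females aged 10 days, in 3 genotypes with 3 libraries each. The first genotype is titled Chd1[WT/WT] and labelled wild type. The second is titled Chd1[-/-] and labelled Chd1-deficient, Chd1 being a chromodomain helicase that remodels nucleosomes. The third carries elav-Gal4 and UAS-Chd1 (here elav>Chd1), so that Chd1 is expressed from a pan-neuronal driver, and is labelled as rescued. Whether elav>Chd1 flies also carry the deletion is not stated outright, and the series text names a rescued group in place of a wild type, so the reference group may carry a restored copy of Chd1.

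In flies, the fat body takes up nutrients and reports the feeding state to other tissues through secreted proteins. One of these is the product of fit, a small peptide that the fat body of the head releases after a protein meal and that restrains further feeding. Expression of fit there is female-biased. The unpaired ligand upd2 is a leptin-like signal of the fed state that acts through the receptor dome and the JAK-STAT pathway, and daw is an activin-like TGF-beta ligand that responds to dietary sugar and signals through the receptor babo and the transcription factor Smox. The gene to (takeout) encodes a secreted protein of a family that resembles juvenile hormone binding proteins. It is male-biased in the fat body of the head and rises on starvation. The product of tobi, an alpha-glucosidase, is a target of brain insulin and of adipokinetic hormone and responds to dietary protein and sugar.

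The values are TPM, transcript abundances adjusted for transcript length and scaled to a fixed total per library, so sequencing depth is unknown. Library totals lay between 999684.9 and 999850.0 TPM. Chd1 itself stood at 92.65 to 108.5 TPM in wild type, 63.13 to 63.68 in elav>Chd1 and 18.22 to 20.19 in Chd1-deficient libraries, in the direction of the labels. Tissue and sex go against the labels in part: 7 ovary and eggshell markers summed to between 10221.7 and 13129.5 TPM in every library. The 6 neuron markers summed to 54.8 to 178 TPM over all libraries. Of these, elav was the lowest and did not exceed 4 TPM in any group mean. Head RNA was present too, since the 6 photoreceptor markers summed to 1162.6 to 4761.6 TPM. The sum of 8 male markers reached 250.5 to 266.6 TPM without Chd1, against 55.52 to 65.78 in wild type and 32.51 to 36.99 in elav>Chd1. Without bam, which the female germline also expresses, the other 7 reached 229.7 to 246.8, 23.82 to 26.1 and 7.995 to 11.88 TPM. No level can therefore be assigned to the head alone. In such mixed tissue, fewer cells of a type and less RNA per cell cannot be told apart.

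The 5 genes lie on 3 chromosomes in the dm6 annotation (Ensembl BDGP6.54). The gene fit (FBgn0038914) is a single exon of 531 bases on chromosome 3R, 21883924 to 21884454, minus strand. The gene to (FBgn0039298) lies on 3R, 25240180 to 25241668, plus strand, and tobi (FBgn0261575) on 3R, 25344761 to 25346921, minus strand. These 2 are separated by 103092 bases. upd2 (FBgn0030904) is at X, 18240654 to 18243284, minus strand, and daw (FBgn0031461) at 2L, 2805261 to 2812376, plus strand. The end of daw is 167185 bases from Chd1. The 3′ end of fit overlaps CG31465 by 67 bases and that of tobi overlaps rha by 78 bases, in both cases a gene on the opposite strand. Whether counting used the strand is not stated, so such pairs cannot be told apart by strand. CG31465 reached at most 0.2105 TPM and rha at most 0.5954 TPM in any library.

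The levels of the 5 genes spanned several orders of magnitude, and they did not share 1 order of genotypes. fit was among the abundant transcripts, tobi, to and daw were moderate to low, and upd2 was close to the limit of measurement. fit was highest without Chd1 and lowest in elav>Chd1. to and daw were highest in elav>Chd1, while the tobi means differed by less than 2 TPM.

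**Figure D1:**
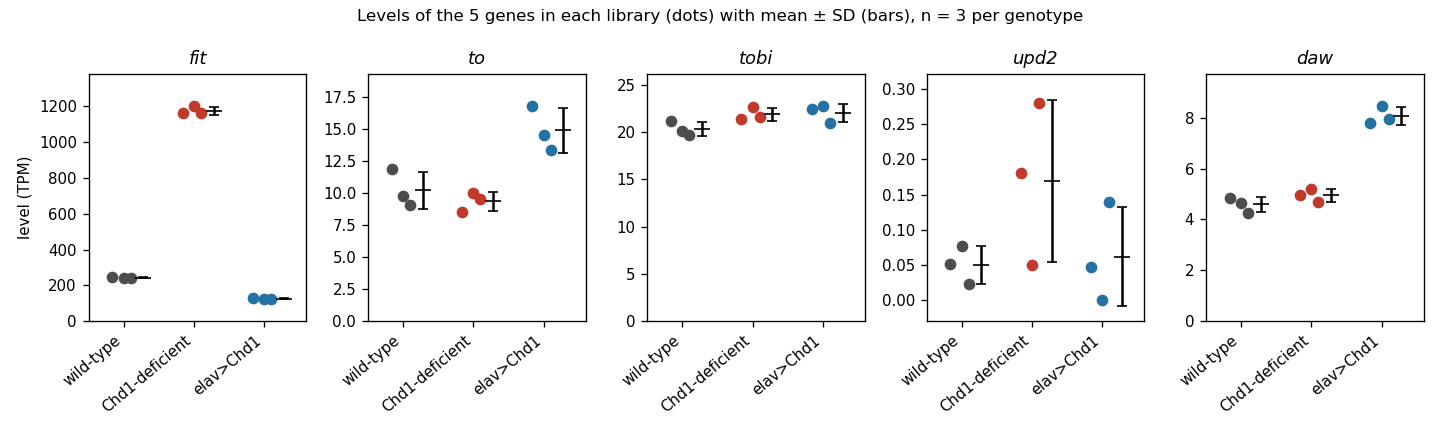
TPM of fit, to, tobi, upd2 and daw in each of the 9 libraries (dots, coloured by genotype) with the mean ± SD of 3 libraries beside them; each panel has its own linear axis. The Chd1-deficient libraries stand at 1161.8 to 1201.7 TPM for fit, and the elav>Chd1 libraries are the highest group for to and daw.

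The satiety gene fit read 248.8, 241.4 and 242.8 TPM in the wild-type libraries, at 1161.8, 1201.7 and 1162.6 in the Chd1-deficient libraries and at 128.6, 124.6 and 124.4 in the elav>Chd1 libraries. The 3 genotypes did not overlap, and the libraries of each lay close together. The means were 244.3 ± 3.91 TPM in wild type, 1175.4 ± 22.8 in Chd1-deficient and 125.9 ± 2.34 in elav>Chd1 (SD, n = 3). The Chd1-deficient mean was 4.81 times that of wild type and 9.34 times that of elav>Chd1, and the elav>Chd1 mean was 0.515 times that of wild type. As differences of log2(TPM + 0.5), a scale that compresses low genes, these were 2.26, 3.22 and -0.95 in that order (SE 0.03 each). Among all 16837 genes, fit ranked between 140 and 147 by level in the Chd1-deficient libraries, between 620 and 632 in wild type and between 1100 and 1149 in elav>Chd1. The authors' deposited table gives fit a log2 fold change of 2.34 (SE 0.035) for Chd1-deficient against wild type, and their second table gives 3.24 (SE 0.039) against elav>Chd1. fit is the single gene of the 5 listed in those tables, which by their title lines are limited to genes that differ by at least 1 log2 unit.

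Fat body and male marker RNA was also highest in Chd1-deficient libraries, but in elav>Chd1 the fat body markers were divided. The 12 fat body markers summed to 367.9 to 375.6 TPM in wild type, 856.2 to 886 in Chd1-deficient and 356.1 to 360.6 in elav>Chd1 libraries. None was at 0 in a group. All 12 were called higher in Chd1-deficient than in wild type (limma, Benjamini-Hochberg adjusted p under 0.05 over all genes tested), where 42.9% of all genes were called higher. In elav>Chd1 against wild type, 4 of the 12 were called higher and 6 lower (all genes 30.6% higher and 47.3% lower), and 6 shared the sign of fit. In Chd1-deficient against wild type, 4 of the 12 differed in the same direction by more than fit did. Tsf1, an iron-carrying transferrin, rose from 150.9 ± 0.993 to 343.4 ± 8.74 TPM and was at 85.18 ± 2.04 TPM in elav>Chd1. Lsp2, a larval serum storage protein, had the same order of means, at 102.8 ± 3.07, 232.6 ± 4.97 and 62.37 ± 1.28 TPM. Lsd-1, a lipid droplet protein, and AkhR, the adipokinetic hormone receptor, were instead highest in elav>Chd1, at 106.6 ± 1.49 and 9.466 ± 0.284 TPM against 33.02 ± 1.46 and 4.12 ± 0.609 in wild type. fon, a clotting protein, and Apoltp, a lipid transfer particle, were also higher there than in wild type, at 28.41 ± 0.75 and 4.78 ± 0.153 TPM against 18.46 ± 0.912 and 2.882 ± 0.0454. The level of fit per summed fat body marker was 0.643 to 0.665 in wild type, 1.31 to 1.40 in Chd1-deficient and 0.345 to 0.361 in elav>Chd1 libraries. This ratio depends on the markers summed, which did not move alike. In Chd1-deficient against wild type, Fbp1, Fbp2, Lsp1alpha and Lsp1gamma rose by 3.28 to 4.30 log2 units and Lsp1beta by 2.26, as fit did. The other markers rose by less. Summed markers of photoreceptors, glia and muscle were also highest in Chd1-deficient libraries, at 4626.4 to 4761.6, 282.3 to 302.1 and 2247.7 to 2339.3 TPM, against 1162.6 to 1200.8, 75.0 to 80.94 and 363.6 to 377.9 TPM in wild type. In elav>Chd1 they reached 1934.8 to 1964.7, 147.5 to 153.3 and 1159.9 to 1167.9 TPM, above wild type, where fit was below it. Of the 8 male markers, 7 were called higher in Chd1-deficient than in wild type, against 42.9% of all genes. The part of these marker lists in the level of fit was not tested.

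**Figure D2:**
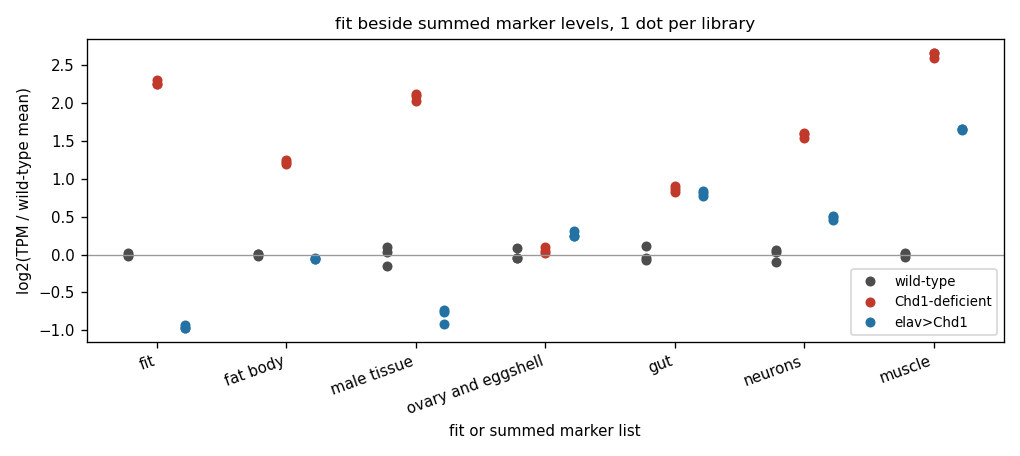
log2 of TPM over the wild-type mean for fit and for 6 summed marker lists, 1 dot per library, coloured by genotype. fit and the male list are low in elav>Chd1 and high in Chd1-deficient libraries, while the fat body sum of elav>Chd1 (356.1 to 360.6 TPM) lies just under that of wild type (367.9 to 375.6 TPM).

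The carrier-like gene to was at 11.89, 9.777 and 9.081 TPM in wild type, at 8.559, 10.0 and 9.543 in Chd1-deficient and at 16.84, 14.53 and 13.38 in elav>Chd1 libraries. The wild-type and Chd1-deficient libraries overlapped, and all elav>Chd1 libraries lay above both. Means were 10.25 ± 1.46, 9.368 ± 0.738 and 14.92 ± 1.76 TPM. The log2 difference from wild type was -0.12 (SE 0.11) in Chd1-deficient and 0.52 (SE 0.11) in elav>Chd1, and Chd1-deficient differed from elav>Chd1 by -0.64 (SE 0.11). Male marker RNA was highest in Chd1-deficient libraries, and its part in the level of to was not tested.

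The TGF-beta ligand daw, like to, was highest in elav>Chd1. It stood at 4.849, 4.653 and 4.261 TPM in wild type, at 4.95, 5.192 and 4.686 in Chd1-deficient and at 7.773, 8.458 and 7.935 in elav>Chd1 libraries. Wild-type and Chd1-deficient libraries overlapped, and elav>Chd1 lay above both. The means were 4.588 ± 0.299, 4.943 ± 0.253 and 8.055 ± 0.358 TPM, and elav>Chd1 was at 1.76 times the wild-type mean. The log2 difference from wild type was 0.75 (SE 0.08) in elav>Chd1 and 0.10 (SE 0.08) in Chd1-deficient, and Chd1-deficient differed from elav>Chd1 by -0.65 (SE 0.08).

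The alpha-glucosidase gene tobi varied least. Its levels were 21.15, 20.11 and 19.7 TPM in wild type, 21.36, 22.67 and 21.58 in Chd1-deficient and 22.4, 22.74 and 20.9 in elav>Chd1 libraries. The Chd1-deficient libraries lay just above those of wild type, by less than the spread within a group, and the elav>Chd1 libraries overlapped both. Means were 20.32 ± 0.745, 21.87 ± 0.698 and 22.01 ± 0.98 TPM. The log2 difference from wild type was 0.10 in Chd1-deficient and 0.11 in elav>Chd1, and Chd1-deficient differed from elav>Chd1 by -0.01 (SE 0.05 each).

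The leptin-like gene upd2 was not expressed above 0.3 TPM in any library. It was at 0.05188, 0.0764 and 0.02252 TPM in wild type, at 0.18, 0.04999 and 0.2798 in Chd1-deficient and at 0.04677, 0 and 0.1389 in elav>Chd1 libraries. All 3 groups overlapped, and 1 elav>Chd1 library was listed at 0. upd2 did not reach 1 TPM in 3 libraries, the minimum for testing, and has no fold change here. With overlapping groups and no test, a difference between genotypes in upd2 was neither shown nor excluded.

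Counted over the 5 genes, Chd1-deficient and wild-type libraries were without overlap in 2 genes, fit and tobi, both higher in Chd1-deficient. Of all 11094 genes tested, 88.3% had no overlap here, and 42.8% were higher without overlap. Between Chd1-deficient and elav>Chd1, 3 genes had no overlap (fit higher, to and daw lower), against 77.1% of all genes, with 37.5% higher and 39.6% lower. Between elav>Chd1 and wild type, 3 had none (to and daw higher, fit lower), against 78.3%, with 30.7% higher and 47.6% lower. Since the 5 genes were picked with these values known, nothing is read from the counts. By size, the rise rank of fit was 636 of 11094 genes in Chd1-deficient against wild type and 214 against elav>Chd1, while to and daw ranked 407 and 390 from the bottom in the latter. Over all genes, the median log2 difference was -0.05 for Chd1-deficient relative to wild type, -0.02 relative to elav>Chd1, and -0.15 for elav>Chd1 relative to wild type. The comparisons share libraries and are not independent.

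**Figure D3:**
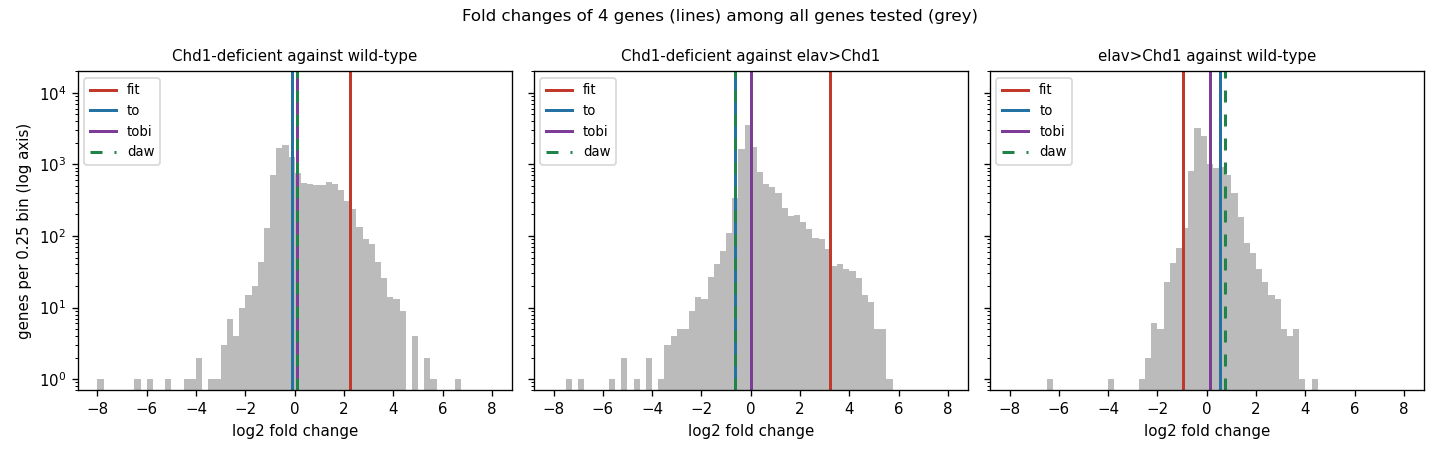
Histograms of the log2 fold change of all 11094 genes tested in the 3 comparisons (grey, gene number on a log axis), with lines for fit, to, tobi and daw. fit lies in the upper tail where Chd1-deficient libraries are compared, at 2.26 and 3.22, and in the lower tail at -0.95 in elav>Chd1 against wild type.

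The genes with the most similar profile over the 9 libraries were sought among 7958 genes with a mean of at least 5 TPM, by the root mean square difference of log2 values after centring each gene. For fit they were Lsp1beta, a larval serum protein (0.182), CG46059 (0.230), msopa (0.236) and PGRP-SB1, a peptidoglycan recognition protein (0.249), where the median over all genes was 1.429. Lsp1beta stood at 8.974 ± 0.302 TPM in wild type, 44.87 ± 0.613 in Chd1-deficient and 5.831 ± 0.174 in elav>Chd1. For daw they were CG4928 (0.062), CG8745, CG42235 and CG10514 (0.079 each), where the median was 0.444. CG10514 was at 15.33 ± 0.57, 16.77 ± 0.567 and 28.98 ± 0.596 TPM. The nearest to the gene to were lncRNA:CR46194, CG17646, CG10553 and GABPI, at 0.117 to 0.129 with a median of 0.384. For tobi, whose profile is nearly flat, they were KrT95D, Mpcp2, Vha16-1 and Rrp42, at 0.031 to 0.037 with a median of 0.269.

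Of 117 tested genes from the pathways around these 5 genes, 70 were called higher and 40 lower in Chd1-deficient than in wild type (limma), where 88.9% of all genes were called, 42.9% higher and 46.0% lower. Against elav>Chd1, 45 were higher and 38 lower, where 68.4% of all genes were called, 34.7% higher and 33.7% lower. In elav>Chd1 against wild type, 66 were higher and 34 lower, where 77.9% of all genes were called, 30.6% higher and 47.3% lower. The 7 lists hold 131 genes, of which 130 are in the files and 117 passed the minimum level, so the counts cover tested genes only.

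**Figure D4:**
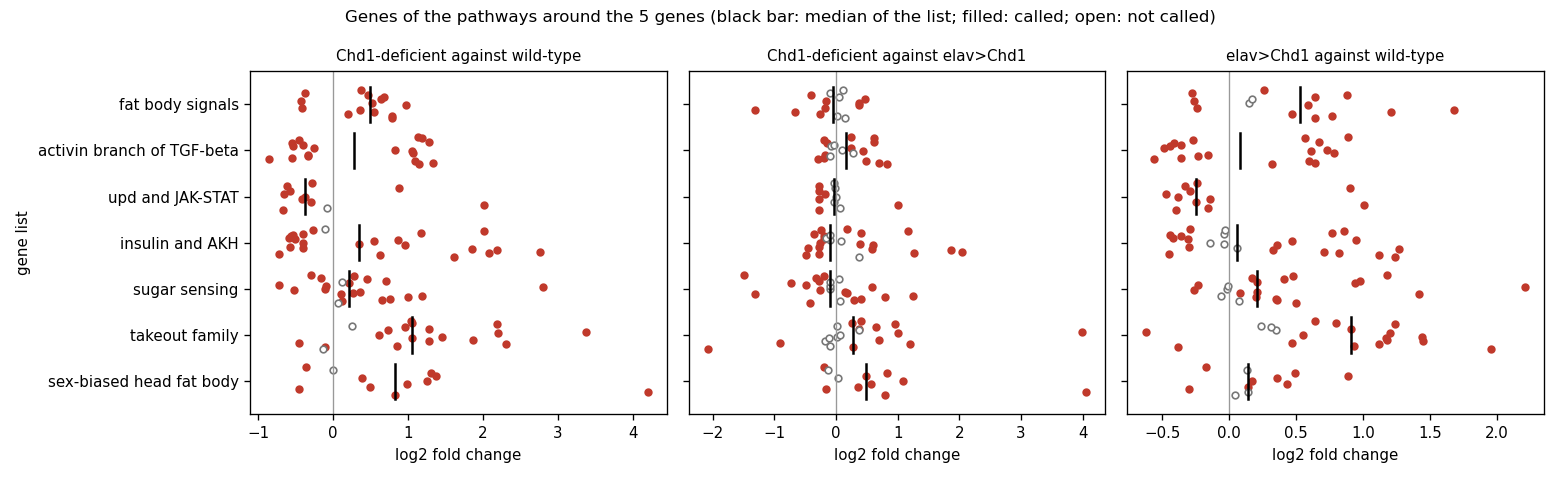
log2 fold change of each tested gene of 7 pathway lists in the 3 comparisons; filled dots passed limma's adjusted p of 0.05, open dots did not, and black bars are list medians. The takeout family median is 1.05 in Chd1-deficient against wild type and 0.91 in elav>Chd1 against wild type, while those of all genes are -0.05 and -0.15.

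Among paralogues of takeout, most were higher outside wild type. Of 19 tested, 15 were higher and 2 lower in Chd1-deficient than in wild type (median log2 fold change 1.05, all genes -0.05), and 14 were higher and 2 lower in elav>Chd1 than in wild type (median 0.91, all genes -0.15). Between Chd1-deficient and elav>Chd1, 10 paralogues were called higher and 2 lower (median 0.28, all genes -0.02). In these 3 comparisons, in the order given, 42.9%, 30.6% and 34.7% of all genes were called higher. CG2650 rose from 2.157 ± 0.477 TPM in wild type to 26.68 ± 1.02 in Chd1-deficient (3.37 log2 units with an SE of 0.13, limma adjusted p = 5.3e-09) and was at 1.216 ± 0.217 in elav>Chd1. CG14661 went from 21.67 ± 1.38 TPM to 60.46 ± 0.576 in Chd1-deficient and 59.7 ± 1.3 in elav>Chd1. CG5867 rose from 8.836 ± 0.742 to 42.01 ± 0.242 and 21.53 ± 1.93 TPM in the same order. The nearest protein-coding neighbours of to on each side are family members too. CG11852, which lies 1284 bases upstream, was highest in Chd1-deficient (6.757 ± 0.466 TPM, wild type 0.977 ± 0.277). CG11854, 351 bases downstream, was highest in elav>Chd1 (2.645 ± 0.231 TPM, wild type 1.791 ± 0.341), as to was. Reads shared between family members could be split by the authors' quantification. Summed neuron, photoreceptor, glia, muscle and gut markers were also higher than wild type in both Chd1-deficient and elav>Chd1. Those of fat body, ovary and male tissue were not higher in both. The part of these tissues in the levels of the family was not tested.

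**Figure D5:**
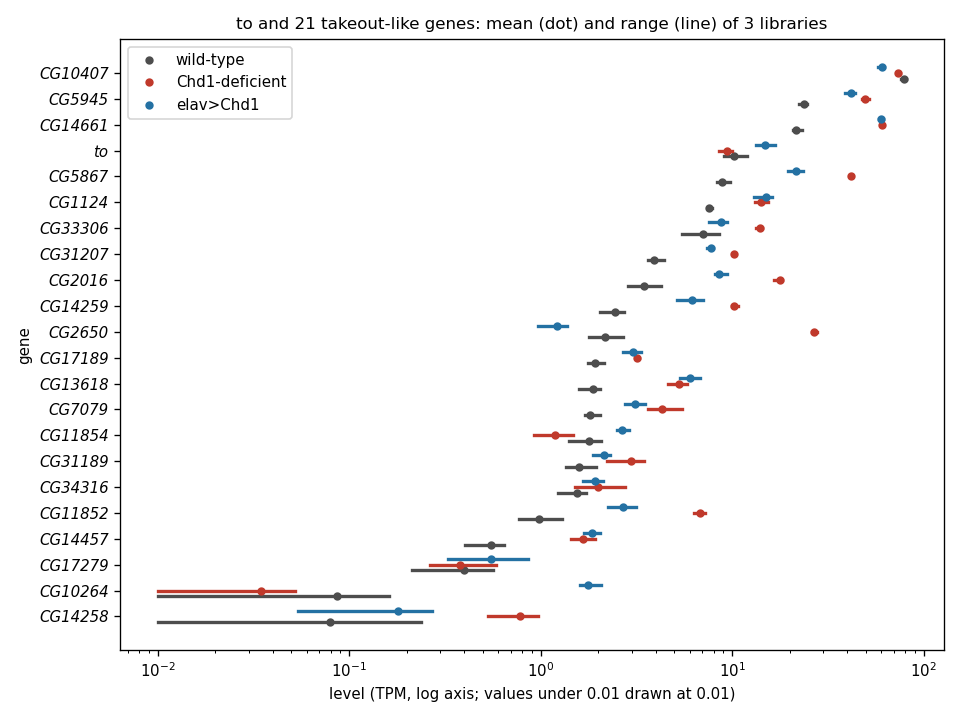
Mean (dot) and range over 3 libraries (line) of to and 21 takeout-like genes in TPM on a log axis, coloured by genotype and ordered by the wild-type mean. CG14661 has elav>Chd1 and Chd1-deficient means close together (59.7 and 60.46 TPM), and to has its highest group in elav>Chd1.

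Genes listed as sex-biased in the fat body of the head were mostly higher in Chd1-deficient libraries than in wild type. Of 11 tested with their sex-determination regulators, 8 were higher and 2 lower than in wild type (median 0.83, all genes -0.05). Of all genes, 42.9% were called higher and 46.0% lower. Obp99b, an odorant-binding protein that is male-biased in this tissue, was at 5.786 ± 0.778 TPM in wild type, 114.5 ± 1.71 in Chd1-deficient and 6.421 ± 0.688 in elav>Chd1 (log2 fold change 4.20, SE 0.09, limma adjusted p = 1.0e-10 against wild type). The yolk protein gene Yp3, which is female-specific, went from 3803.8 ± 149 to 9111.0 ± 181 TPM. Genes with male bias and with female bias were thus both higher. Sxl, the sex-determination switch, fell by 0.46 on the log2 scale, and for tra, its target, the difference was 0.00 (SE 0.07). In elav>Chd1 against wild type, 6 of the 11 were higher and 2 lower (all genes 30.6% higher and 47.3% lower). These levels cannot be assigned to the fat body of the head alone. Ovary and neuron marker RNA was also present, and its part in these values was not tested.

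Genes of sugar sensing were divided between genotypes. In elav>Chd1, 15 of 21 tested were higher and 2 lower than in wild type (median 0.21, all genes -0.15). Of all genes, 30.6% were called higher and 47.3% lower in that comparison. The sugar-induced transcription factor sug rose from 24.98 ± 1.27 to 57.27 ± 1.03 TPM in elav>Chd1 (log2 fold change 1.18, SE 0.05, limma adjusted p = 2.9e-08) and was at 20.12 ± 0.787 TPM in Chd1-deficient. FASN1, a fatty acid synthase, stood at 40.9 ± 1.88 TPM in wild type, 44.12 ± 0.255 in Chd1-deficient and 110.2 ± 1.28 in elav>Chd1, so sug, FASN1 and daw had their highest group in common. Mondo, the sugar sensor that acts above them, was at 62.18 ± 3.52, 57.6 ± 1.35 and 61.42 ± 1.28 TPM. Its partner bigmax was at 36.24 ± 1.07, 32.45 ± 1.49 and 40.83 ± 1.55 TPM. CCHa2, a nutrient-dependent peptide of fat body and gut, had another pattern, at 60.01 ± 3.02, 137.3 ± 3.49 and 57.53 ± 2.17 TPM, and was higher in Chd1-deficient than in both other groups. In Chd1-deficient against wild type 13 of 21 genes were higher and 6 lower (all genes 42.9% higher and 46.0% lower). Pepck2, a phosphoenolpyruvate carboxykinase, was at 8.24 ± 1.38 TPM in Chd1-deficient against 0.7487 ± 0.106 TPM in wild type. Gut markers, whose tissue also expresses sugar-regulated enzymes, summed to 1764.0 to 1994.1 TPM in wild type, 3281.6 to 3461.2 in Chd1-deficient and 3153.9 to 3313.1 in elav>Chd1; their part in these values was not tested.

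Insulin and adipokinetic hormone genes, which act above tobi, were called in both directions. Of 23 tested, 12 were higher and 10 lower in Chd1-deficient than in wild type (median 0.35). Of all genes, 88.9% were called, 42.9% higher and 46.0% lower. The brain insulin-like peptides Ilp2 and Ilp5 rose from 8.524 ± 0.335 to 37.53 ± 1.13 TPM and from 9.633 ± 1.37 to 45.74 ± 4.58 TPM. Ilp3 rose by 2.76 log2 units (limma adjusted p = 1.1e-10). The 6 neuron markers summed to 54.8 to 60.88 TPM in wild type and 169.8 to 178 in Chd1-deficient, and their part was not tested. InR, the insulin receptor, was at 8.66 ± 0.517, 11.14 ± 0.433 and 8.38 ± 0.129 TPM, and foxo, the transcription factor that insulin restrains, at 49.0 ± 4.22, 45.34 ± 2.24 and 39.9 ± 0.362 TPM. Thor, a translation inhibitor and target of foxo, rose from 225.0 ± 9.74 to 509.1 ± 4.16 TPM in Chd1-deficient and to 383.2 ± 13.7 TPM in elav>Chd1. Akh, the hormone that mobilizes stores, was at 1.828 ± 0.595, 6.462 ± 0.745 and 4.867 ± 0.435 TPM, and AkhR at 4.12 ± 0.609, 6.629 ± 0.423 and 9.466 ± 0.284 TPM. In elav>Chd1 against wild type, 11 of the 23 were higher and 7 lower. Of all genes, 77.9% were called, 30.6% higher and 47.3% lower.

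Of the pathway that upd2 acts on, the receptor and the kinase were lower than in wild type in both Chd1-deficient and elav>Chd1, and an inhibitor that the pathway induces was higher in both. The list had 8 of 11 tested genes lower and 2 higher than in wild type (median -0.38, all genes -0.05). In elav>Chd1, 9 of the 11 were lower and 2 higher than in wild type (median -0.25, all genes -0.15). Of all genes, 46.0% and 47.3% were called lower in these 2 comparisons. dome was at 40.51 ± 2.24 TPM in wild type, 27.09 ± 1.23 in Chd1-deficient and 33.1 ± 0.992 in elav>Chd1, and hop, the JAK kinase, at 39.78 ± 2.99, 25.89 ± 0.574 and 31.39 ± 0.559 TPM. Stat92E, the transcription factor, was at 112.4 ± 14.2, 85.62 ± 2.44 and 85.86 ± 2.22 TPM. Socs36E, the feedback inhibitor, rose from 1.656 ± 0.0745 to 8.251 ± 0.24 TPM (log2 fold change 2.02, SE 0.07, limma adjusted p = 2.9e-09) and was at 3.832 ± 0.0819 TPM in elav>Chd1. The other ligands were also scarce, below 1 TPM in every library, but not all as low as upd2. upd3 stood at 0.05368 ± 0.0381, 0.4457 ± 0.0374 and 0.1843 ± 0.0496 TPM, and upd1 at 0.2336 ± 0.101, 0.5146 ± 0.023 and 0.5526 ± 0.0492 TPM. The summed ovary markers lay within 10711.1 to 11319.2 TPM in Chd1-deficient, 10221.7 to 11236.7 in wild type and 12518.5 to 13129.5 in elav>Chd1. The largest part of the sum was the marker Vm26Aa, at 8708.2 ± 324, 6242.9 ± 569 and 7370.5 ± 319 TPM in that order. It was the 1 marker called higher in Chd1-deficient than in wild type. The other 6 of the 7 were called lower, against 46.0% of all genes. In elav>Chd1 against wild type, 3 of the 7 were called higher and 4 lower (all genes 30.6% higher and 47.3% lower). The part of ovary RNA in these values was not tested.

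Around daw, the receptors babo and put and the Smad Smox were lower outside wild type, while the receptor wit and several regulators were higher. Of 18 tested genes, 9 were higher and 9 lower in Chd1-deficient than in wild type (all genes 42.9% higher and 46.0% lower). The counts in elav>Chd1 against wild type were also 9 and 9 (all genes 30.6% higher and 47.3% lower). The receptors babo and put fell from 36.63 ± 3.52 to 28.83 ± 1.18 TPM and from 56.53 ± 4.8 to 42.63 ± 1.82 TPM in Chd1-deficient, and Smox from 56.52 ± 7.11 to 44.73 ± 2.15 TPM. In elav>Chd1 the 3 means were also lower than in wild type, at 32.67 ± 0.285, 43.77 ± 1.4 and 47.75 ± 0.836 TPM. There the libraries of babo and Smox overlapped those of wild type, and those of put did not. Ovary RNA was abundant in every library, and its part in these values was not tested. The receptor wit rose from 1.978 ± 0.191 TPM to 4.921 ± 0.389 in Chd1-deficient and 4.072 ± 0.198 in elav>Chd1. tok, a protease that activates daw, rose from 3.056 ± 0.421 to 7.572 ± 0.285 TPM and was at 4.761 ± 0.208 TPM in elav>Chd1. Dad, an inhibitory Smad of the BMP branch, rose from 3.688 ± 0.489 to 10.02 ± 0.0395 TPM. The ligand gbb of that branch was at 4.714 ± 0.0754 TPM in wild type and at 8.724 ± 0.413 and 8.186 ± 0.793 TPM in Chd1-deficient and elav>Chd1.

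Other secreted signals and lipid genes of the fat body were mostly higher outside wild type, and some of them most so in elav>Chd1. Of 14 tested, 11 were higher and 3 lower in Chd1-deficient than in wild type (median 0.49, all genes -0.05). In elav>Chd1, 9 were higher and 3 lower than in wild type (median 0.53, all genes -0.15). Of all genes, 42.9% were called higher and 46.0% lower in the first comparison, and 30.6% and 47.3% in the second. Relative to elav>Chd1, Chd1-deficient had 3 of them higher and 6 lower (median -0.05, all genes -0.02). Lsd-1 stood at 33.02 ± 1.46 TPM in wild type, 42.43 ± 1.01 in Chd1-deficient and 106.6 ± 1.49 in elav>Chd1 (log2 fold change 1.68, SE 0.04, limma adjusted p = 5.7e-10 for elav>Chd1 against wild type). The lipase gene mag was at 25.42 ± 1.46, 35.47 ± 0.715 and 47.28 ± 2.21 TPM in the same order, and Gbp1, a growth-blocking peptide of the fat body, at 27.67 ± 2.26, 47.91 ± 3.77 and 47.75 ± 5.52 TPM. The 3 genes lower than in wild type were Lsd-2, bmm and mth in both comparisons. Lsd-2 was at 756.7 ± 48.3, 563 ± 12.5 and 639.7 ± 8.46 TPM, and bmm at 68.59 ± 4.25, 50.76 ± 0.388 and 57.17 ± 1.7 TPM. For mth the values were 13.53 ± 1.49, 10.26 ± 0.134 and 11.03 ± 0.628 TPM. Ovary markers had 6 of 7 lower and 1 higher in Chd1-deficient than in wild type, and 4 lower and 3 higher in elav>Chd1. Their part in these values was not tested.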

How the data were processed

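RNA-seq of 9 libraries (3 genotypes, 3 each) was analysed from 1 TPM table per library. The authors deposited TPM (length-adjusted transcript abundance). Salmon and DESeq2 are named, without version or role, per the submitters' processing notes that the authors gave. The genome build and the strand setting of the quantification are not given in the sources used here. Also deposited by the authors were, per the file headers, log2 fold changes with their errors, mean normalized counts (a signal), a test score, p-values and adjusted p-values for 2 comparisons. From these only the fold changes of fit were used. Samples were grouped by their titles. A pseudocount of 0.5 was added before log2, and 1 mean per genotype was fitted over the 9 libraries with limma-trend; adjusted p is Benjamini-Hochberg over 11094 genes with at least 1 TPM in 3 libraries, with a threshold of 0.05. The labels do not say that libraries of a genotype came from separate flies, so the p-values reflect library-to-library variation that may be only technical. Depth is unknown, so no counting interval can be given.

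The members, the 7 pathway lists and the 8 marker lists were chosen with earlier results of these data known. Genes named are the members, the 3 called genes of largest fold change per list and comparison with a mean of at least 5 TPM, fixed signalling genes, and the 4 genes of most similar profile per member; not all of these are described. CG11854, upd1, CG31465 and rha are named as neighbours, overlapping genes or ligands beside the members. Tsf1, Lsp2, fon, Apoltp, Fbp1, Fbp2, Lsp1alpha, Lsp1gamma, Lsd-2, bmm, mth, wit, tra, Vm26Aa and elav were chosen after their values were seen. Of 131 list genes, 130 had values and 117 passed the minimum level for testing. Alternatives were no filter, at least 10 TPM, pseudocounts of 0.1 and 1, median-ratio scaling, only the compared genotypes, replicate number as a block, each library left out, and a minimum difference of 1 log2 unit. A sum of male markers without bam was added after its values were seen. The procedure was tested on simulated data. Tools were R 4.3.3, limma 3.58.1, Python 3.11.15, pandas 2.3.3 and matplotlib 3.10.9.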

Additional observations from a re-analysis of the deposited data

How the results depend on the processing

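Of 108 recomputed fold changes of fit, to, tobi and daw under other pseudocounts, median-ratio scaling and with each library left out, 106 moved by less than the spread between replicates. Leaving out 1 of 3 libraries cannot move a group mean by that spread, so the fits with a library left out could not be exceptions. The exceptions were fit under median-ratio scaling, at 3.19 against elav>Chd1 and -0.90 for elav>Chd1 against wild type. The difference of tobi between Chd1-deficient and elav>Chd1 changed sign when a library was left out (-0.04 to 0.01). Genes without overlap among the 5 numbered 2 to 3, 3 to 4 and 3 to 4 with 1 library left out, and 3, 3 and 4 under median-ratio scaling, in the order Chd1-deficient relative to wild type, then relative to elav>Chd1, then elav>Chd1 relative to wild type. All further triplets follow this order.

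A minimum difference of 1 log2 unit was passed by 3231, 1921 and 937 genes, of which 92.9%, 91.2% and 85.2% were higher (48.3%, 50.7% and 39.3% before), and by 34, 15 and 17 pathway genes, with 0, 4 and 0 lower. With at least 10 TPM in 3 libraries, 4994 genes were called between Chd1-deficient and elav>Chd1 (7583 before), and the share higher was 27.6%, 32.0% and 24.8%; fewer genes were tested. Leaving out 1 library gave 8559 to 9982, 5715 to 8292 and 8108 to 8770 genes called, and 104 to 112, 74 to 89 and 94 to 101 pathway genes. With the replicate number as a block, 9821, 7421 and 8527 genes and 108, 80 and 98 pathway genes were called. Deviations of libraries with the same number correlated between -0.155 and 0.108 and over 0.1 in 1 of 9 pairs. Those of libraries with different numbers correlated between -0.151 and 0.18. With 3 libraries per group, this check cannot decide whether the numbers pair samples. Sequencing depth is unknown, and upd2 stayed below 0.3 TPM.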

Other observations

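The nearest annotated protein-coding genes on each side of the 5 genes were compared with them by level. Noncoding genes were not considered. Those of to, and those that overlap fit and tobi, are given above. CG17819, 273 bases from fit, had the same order of means as fit, at 0.1832 ± 0.0988 TPM in wild type, 1.374 ± 0.506 in Chd1-deficient and 0.08393 ± 0.0836 in elav>Chd1 (SD, n = 3), with overlap between wild type and elav>Chd1. Fur1, a furin protease gene 509 bases from tobi, stood at 34.81 ± 1.97, 22.68 ± 0.912 and 25.79 ± 0.936 TPM, with its highest group in wild type. On either side of daw, Syt1, the synaptotagmin gene 5281 bases away, was at 7.126 ± 0.666, 34.64 ± 2.2 and 13.16 ± 0.283 TPM. CG2964, 60 bases away on the other side, was at 0.09752 ± 0.0474, 1.348 ± 0.297 and 0.04478 ± 0.0561 TPM. Both were highest in Chd1-deficient libraries, where daw was not. The neighbours of upd2 at 14577 and 15266 bases, CG33639 and CG15059, were also highest in Chd1-deficient libraries, at 2.192 ± 0.116 and 1.272 ± 0.455 TPM against 0.3885 ± 0.143 and 0.1166 ± 0.0375 in wild type.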
